A study of Caenorhabditis elegans with 2 samples.

Results

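Autosomal promoter peaks of ZAG-1 are the sites of the authors' reproducible ce11 peak list whose summits fell at the start of a protein-coding gene outside the X chromosome and mitochondrial DNA. A peak was a member when its summit lay from 500 bp upstream to 100 bp downstream of the 5′ end of any annotated protein-coding transcript (WBcel235, the assembly that ce11 names). This rule, which uses positions only, kept 582 of 1803 peaks, 32.28% of the list and 41.90% of its 1389 autosomal peaks (95% Wilson interval 39.33 to 44.51). The other 807 autosomal peaks and the 137 promoter peaks among 395 peaks of the X chromosome were the groups set beside them.

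The study mapped eGFP-tagged ZAG-1 by chromatin immunoprecipitation and sequencing in whole Caenorhabditis elegans larvae at the L2 stage. All animals were of strain OP83, which has the genotype unc-119(ed3) III; wgIs83, an insertion that carries tagged zag-1 in an unc-119 mutant background. Animals of both sexes were pooled, and 2 biological replicates formed 1 group, so the data hold no condition to compare. All cells of the larva contributed chromatin, and a peak does not say in which cells it was bound.

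ZAG-1 is the worm's member of the ZEB family, transcription factors with a homeodomain between clusters of zinc fingers, known in C. elegans for the differentiation of several neuron classes. Vertebrate ZEB proteins bind E-boxes of the form CAGGTG, read as CACCTG on the other strand, and often repress their targets. In the compact worm genome many genes sit head to head, so that one stretch of DNA serves as the upstream sequence of a gene on each strand. Such a stretch is called a divergent promoter here when the summit lay in the windows of genes on both strands, and a single promoter otherwise.

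The sequence under the strongest of these peaks is shown first, because the windows share short elements other than the E-box. The score is the authors' own value per peak, on a scale the sources do not state, and ranged from 29.67 to 354.0 over the members (median 45.86). The lines give 101 bases centred on the summit, on the plus strand of WBcel235 (RefSeq sequence), for the 6 highest-scoring members on chromosomes II to V. Capitals mark AGTGTA and AGCGTGT or their reverse complements TACACT and ACACGCT, which were picked after these sequences were seen.
rpl-3 (III:3867536-3867636): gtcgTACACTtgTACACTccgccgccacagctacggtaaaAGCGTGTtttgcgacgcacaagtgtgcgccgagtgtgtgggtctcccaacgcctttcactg
tasp-1 (III:10759200-10759300): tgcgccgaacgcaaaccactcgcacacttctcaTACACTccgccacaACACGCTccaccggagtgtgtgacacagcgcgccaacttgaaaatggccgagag
cdc-48.1 (II:10563530-10563630): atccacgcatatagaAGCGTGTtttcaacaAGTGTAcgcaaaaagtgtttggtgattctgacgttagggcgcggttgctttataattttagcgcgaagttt
rpl-15 and K11H12.8 (IV:654874-654974): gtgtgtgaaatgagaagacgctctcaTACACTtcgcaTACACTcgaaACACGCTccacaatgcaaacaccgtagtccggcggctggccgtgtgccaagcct
iff-2 (II:8561399-8561499): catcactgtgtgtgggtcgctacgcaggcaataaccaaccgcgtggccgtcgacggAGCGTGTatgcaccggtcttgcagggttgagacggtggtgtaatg
rpl-35 (III:7854625-7854725): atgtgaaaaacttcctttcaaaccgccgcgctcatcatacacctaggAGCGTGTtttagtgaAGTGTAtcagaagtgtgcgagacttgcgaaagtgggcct

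All 6 printed windows held AGCGTGT, and those at rpl-3, tasp-1, cdc-48.1, rpl-15 and rpl-35 also held AGTGTA, which rpl-3 and rpl-15 carried more than once. Within 100 bp of the summit and on either strand, AGCGTGT was found at 6 of the 12 strongest members, at 8 of the 50 strongest and at 2.820% of the other 532. It was found at 3.952% of all members, at 2.974% of other autosomal peaks and at 1.066% of 16518 autosomal promoters without a peak, read in a window of the same length centred 184 bp upstream of the start. AGTGTA was found at 7 of the 12 strongest members and at 13 of the 50 strongest, against 9.794% of all members, 9.170% of other autosomal peaks and 7.604% of promoters without a peak. Both sequences were therefore more frequent among the strongest members than among the rest, and no test was made because they were chosen for that.

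The second set of sequences carries elements that were far more frequent at the members as a whole than at promoters without a peak. They were not the most frequent six-base sequences, since AAAAAT was present at 58.59% of members and 76.67% of promoters without a peak. The GA repeat GAGAGA and the elements written CGTCTC on one side and ACGCAG on the other, which share up to 4 letters when they run together, were counted on both strands within 100 bp of the summit. The first was present at 39.18% of members, the second at 33.16% and the last at 28.87%, against 13.72%, 6.526% and 5.527% of autosomal promoters without a peak. At least 1 of the 3 was present at 61.86% of members (57.84 to 65.71) and at 20.64% of promoters without a peak, and all 3 at 63 members (10.82%) against 1.120%. The elements are not particular to the members. At least 1 was present at 72.24% of other autosomal and 67.88% of X promoter peaks, and all 3 at 16.48% and 10.95%. Mean GC content was 43.91% over members and 33.79% over promoters without a peak, and its part was not tested. These elements were chosen with earlier results of these data known. The 4 highest-scoring members with all 3 on chromosomes II to V are printed as 201 bases centred on the summit, plus strand of WBcel235, with the 3 sequences or their reverse complements in capitals.
drr-2 and set-16 (III:13643634-13643834): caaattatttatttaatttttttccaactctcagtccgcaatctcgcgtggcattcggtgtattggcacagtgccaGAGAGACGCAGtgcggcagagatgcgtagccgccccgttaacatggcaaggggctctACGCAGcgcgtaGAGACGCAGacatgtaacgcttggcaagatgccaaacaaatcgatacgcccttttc
sec-61.G (V:10897280-10897480): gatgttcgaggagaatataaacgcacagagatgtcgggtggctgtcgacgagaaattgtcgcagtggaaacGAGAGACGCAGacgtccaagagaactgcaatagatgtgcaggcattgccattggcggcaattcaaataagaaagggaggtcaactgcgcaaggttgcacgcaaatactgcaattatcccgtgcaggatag
myrf-1 (II:10502774-10502974): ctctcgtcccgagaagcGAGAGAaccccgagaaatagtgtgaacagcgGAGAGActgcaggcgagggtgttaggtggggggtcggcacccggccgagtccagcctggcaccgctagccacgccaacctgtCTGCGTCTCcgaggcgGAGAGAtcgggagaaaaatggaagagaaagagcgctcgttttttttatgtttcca
W02B3.3 (III:668392-668592): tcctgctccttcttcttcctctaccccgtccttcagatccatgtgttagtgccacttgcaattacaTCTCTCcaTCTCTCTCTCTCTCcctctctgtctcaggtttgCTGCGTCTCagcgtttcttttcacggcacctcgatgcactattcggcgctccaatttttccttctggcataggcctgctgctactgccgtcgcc

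In the upper 2 windows the elements run together as GAGAGACGCAG, and in the lower 2 the run CTGCGTCTC stands apart from the GA repeats. A match is a description of the letters and does not show what binds there.

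The third set shows the E-box that the protein family is known for, which was uncommon at these promoters. CAGGTG or CACCTG lay within 100 bp of 13 of 582 member summits (2.234%, 1.310 to 3.784), against 5.237% of autosomal promoters without a peak. The 5 highest-scoring of the 13 are printed as 46 bases around the box, plus strand of WBcel235, with the box in capitals.
C47E8.4 and hsp-90 (V:14685712-14685757): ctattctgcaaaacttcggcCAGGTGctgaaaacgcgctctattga
vig-1 (II:1320651-1320696): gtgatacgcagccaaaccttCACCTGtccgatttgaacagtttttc
prp-8 (III:8164030-8164075): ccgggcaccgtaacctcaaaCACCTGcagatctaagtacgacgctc
kel-3 (III:13464573-13464618): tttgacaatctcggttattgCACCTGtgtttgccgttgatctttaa
C34B4.2 (V:13086161-13086206): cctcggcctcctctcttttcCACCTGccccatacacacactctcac

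The box lay 61 bp from the summit at hsp-90, 59 bp at vig-1, 18 bp at prp-8, 47 bp at kel-3 and 26 bp at C34B4.2. The peak at hsp-90, which encodes the cytosolic chaperone HSP90 and shares its upstream sequence with C47E8.4, scored 104.8. Those at vig-1 and prp-8, a core component of the spliceosome, scored 84.37 and 53.76. None of the 12 strongest members held the box. The other E-boxes counted were present at 4.639% (CACGTG), 9.450% (CACATG) and 6.873% (CAGCTG) of members, against 3.590%, 6.678% and 3.578% of promoters without a peak.

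The 12 strongest autosomal promoter peaks lay at genes of various functions, ribosomal protein genes the most numerous among them. The highest-scoring nuclear peak of the whole list (score 354.0) had its summit 268 bp upstream of rpl-3, which encodes a large-subunit ribosomal protein. It scored 195.9 in the list of replicate 1, where it ranked 5, and 158.9 in that of replicate 2, where it ranked 1. The peak at tasp-1, which encodes a threonine aspartase, scored 273.9 and ranked 8 and 5 in the replicates, 57 bp upstream. That at cdc-48.1, an AAA ATPase that extracts ubiquitinated proteins, scored 268.2 and ranked 7 and 8. The divergent promoter of rpl-15, another protein of the large subunit, scored 247.1 and ranked 11 and 7. The replicate lists hold 24146 and 29374 peaks. These 4 promoters were picked by their score in a list made from both replicates, so their high ranks in each are not separate support.

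Ribosomal protein genes had 5 of these 12 members, against 43 of all 582. At rps-20 and rpl-20 the start of the facing gene lay nearer to the summit. After the 4 named came the divergent promoter of ekl-4 and rps-20, a protein of the small subunit (223.2), iff-2, which encodes the translation factor eIF5A (195.8), and rpl-35 (189.1). Then followed cox-5B, a subunit of cytochrome c oxidase (182.2), and the divergent promoters of Y17G9B.5 and rpl-20 (180.2) and of enpl-1 and imp-2 (178.1). enpl-1 encodes the endoplasmic reticulum form of HSP90, and imp-2 an intramembrane protease. Y39E4B.6 (174.0), whose RefSeq product is a Smad nuclear-interacting protein, and the histone H4 gene his-37 (172.7) completed the 12. In replicate 1 all 12 ranked between 5 and 42, and in replicate 2 between 1 and 45, which their choice by score favours. The peaks of 11 of the 12 were narrower than 376 bp, the width of 555 of the 582 members.

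**Figure D1:**
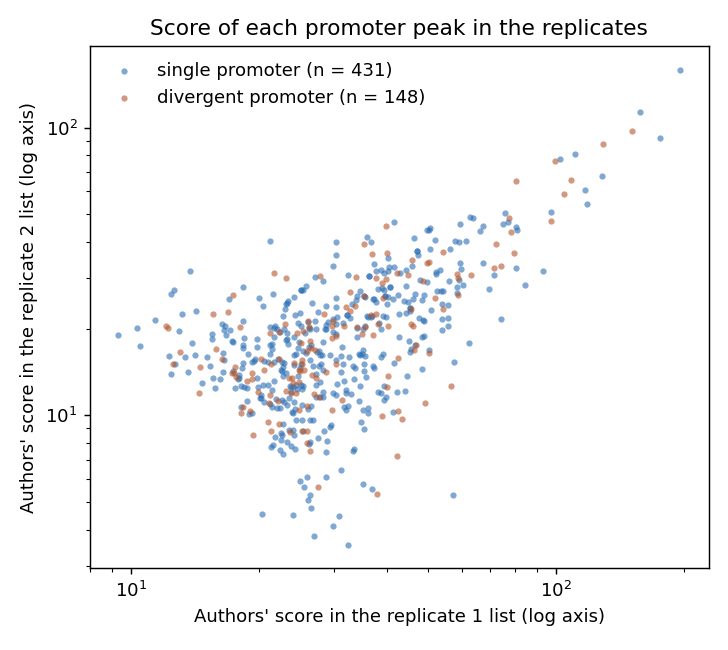
Each point is a promoter peak, with the authors' score of the best overlapping peak in the replicate 1 list on the horizontal axis and in the replicate 2 list on the vertical axis, both on log axes without units. Single promoters reach 195.9 and 158.9 (rpl-3, at the upper right) and divergent promoters 151.1 and 97.34 (rpl-15), and below these the 2 kinds overlap.

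Every member overlapped a peak of replicate 1 and 579 overlapped a peak of replicate 2 by at least 1 bp. T23G4.2, the promoter of spe-39 and spn-4, and taap-1 were the 3 without a peak in replicate 2, named after their values were seen. The plot of scores by replicate shows the members spread widely below the strongest promoters. Scores over the 579 were correlated with a Spearman rho of 0.5041 and a Pearson r of 0.8065, a description across peaks that share 2 libraries and were selected from both. The lists of single replicates hold background as well as peaks, and 11 members ranked beyond 10000 in replicate 2 while none did in replicate 1. The member that ranked lowest in replicate 2 was tba-1, an alpha-tubulin gene, at 23010 with a replicate 1 rank of 720. The one lowest in replicate 1 was idhg-1, a subunit of isocitrate dehydrogenase, at 6958 with a replicate 2 rank of 796.

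Divergent promoters held 149 of the 582 members (25.60%, 22.22 to 29.30) and single promoters 433. Sequence in the windows of genes on both strands made up 5.758% of the 12.15 Mb of autosomal promoter windows. Members therefore lay at 213.0 per Mb of divergent window and 37.82 per Mb of single window, a ratio of 5.632. This ratio is per base and not per gene, since each base of divergent window belongs to genes on both strands. Of the X chromosome's 137 promoter peaks 10 were divergent (7.299%, 4.013 to 12.92), where windows on both strands made up 1.612% of promoter sequence. The 5′ ends that faced each other lay a median of 420 bp apart (quartiles 293 and 564). In 140 of the 149 the summit lay between the facing starts. The widest pair was vha-1, a subunit of the vacuolar proton pump, and sqv-3, 900 bp apart, and the closest was F30F8.5 and taf-5, whose starts overlapped by 56 bp.

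No difference in score or replicate support between divergent and single promoters passed the threshold. The median score was 46.49 over divergent and 45.80 over single members, and 27.52% and 25.17% were in the top 25% of the list by score (two-sided Fisher's exact test, adjusted p = 0.8536, over 45 tests of 15 traits in 3 comparisons). Overlap with a peak among the 1803 strongest of both replicates was found for 65.77% of divergent and 65.36% of single members (Fisher's exact test, adjusted p = 1.000). Divergent promoters made up 4 of the 10, 15 of the 50 and 28 of the 100 strongest members, and between 22.76% and 28.08% of each of 4 equal groups of members by score. The highest-scoring after those already named was that of F01G4.6, a mitochondrial phosphate carrier, and pfd-1, a prefoldin subunit (165.3).

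The sequence at divergent promoters differed from that at single ones. GAGAGA was present at 24.83% of divergent members (18.59 to 32.34) and 44.11% of single members (39.51 to 48.82), a difference of -19.28 percentage points (Fisher's exact test, adjusted p = 4.04e-04). TTAAAA was present at 38.26% and 22.86% (Fisher's exact test, adjusted p = 0.003433), but within 50 bp of the summit its difference fell to 3.536 points (Fisher's exact test, adjusted p = 0.6381). CGTCTC was found at 24.83% and 36.03% (Fisher's exact test, adjusted p = 0.05952) and ACGCAG at 26.17% and 29.79% (adjusted p = 0.8536). The mean GC content of the 201 bp window was 41.77% ± 6.254 (SD, 149 divergent peaks) and 44.64% ± 6.694 (SD, 433 single peaks). Ribosomal protein genes also moved with this split, since 25 of the 43 members at their promoters were divergent (58.14%) against 124 of the other 539 (23.01%), and GAGAGA was present at 7 of the 43. Without those 43 members the GAGAGA difference was -15.55 points (Fisher's exact test, adjusted p = 0.01586). The part of base composition in the difference was not tested.

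**Figure D2:**
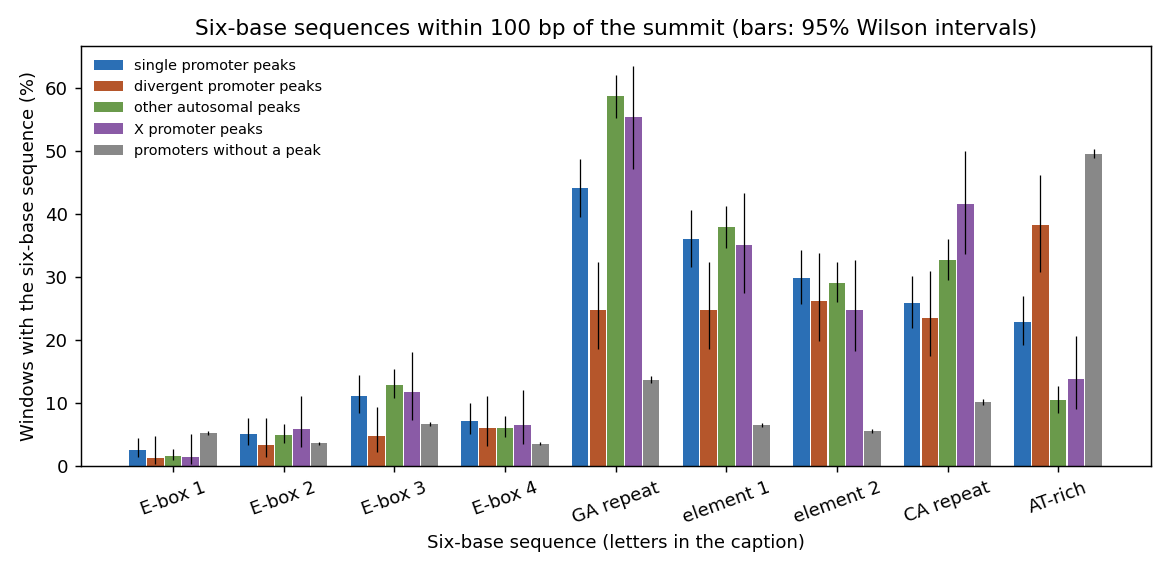
Bars give the percentage of 201 bp windows that hold a six-base sequence on either strand in single promoter peaks (433), divergent promoter peaks (149), other autosomal peaks (807), X promoter peaks (137) and autosomal promoters without a peak (16518), with 95% Wilson intervals for counting error. E-box 1 is CAGGTG, E-box 2 is CACGTG, E-box 3 is CACATG, E-box 4 is CAGCTG, the GA repeat is GAGAGA, element 1 is CGTCTC, element 2 is ACGCAG, the CA repeat is CACACA and the AT-rich sequence is TTAAAA. The GA repeat reaches 44.11% in single and 24.83% in divergent members.

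Compared with other autosomal peaks, promoter members had fewer GA repeats and more AT-rich sequence. GAGAGA was found at 39.18% of members and 58.74% of the other 807 (Fisher's exact test, adjusted p = 1.38e-11), and TTAAAA at 26.80% and 10.41% (Fisher's exact test, adjusted p = 1.35e-13). CACACA was found at 25.26% and 32.71% (Fisher's exact test, adjusted p = 0.01620), a call that was lost with 5 of the alternative settings. Promoters without a peak held TTAAAA at 49.62%, more than the members, and CACACA at 10.14%, less than the members. Against X promoter peaks, members again had less GAGAGA (39.18% and 55.47%, adjusted p = 0.005461), less CACACA (25.26% and 41.61%, adjusted p = 0.002393) and more TTAAAA (26.80% and 13.87%, adjusted p = 0.008107, Fisher's exact test for each). The GAGAGA difference from X promoters was not called with the peaks of replicate 1 alone (-10.99 points, Fisher's exact test, adjusted p = 0.08414) or of replicate 2 alone (-11.29 points, adjusted p = 0.08246), and with windows of 1000 bp it was -7.104 points (adjusted p = 0.2783). Within 50 bp of the summit none of the 3 differences from X promoters was called, and that of TTAAAA was also lost with windows of 300 bp and with the higher-scoring 50% of peaks (Fisher's exact test, adjusted p from 0.08038 to 0.1948). GC content moved with these groups, at 43.91% ± 6.697 (SD) over the 582 members, 46.47% over other autosomal peaks, 48.72% over X promoter peaks and 33.79% over promoters without a peak.

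No difference in score or replicate support between members and the other groups passed the threshold. The median score was 45.86 over members, 42.88 over other autosomal peaks and 45.01 over X promoter peaks, and members made up 5 of the 10 and 34 of the 100 strongest nuclear peaks. A score in the top 25% of the list was found for 25.77% of members and 21.81% of other autosomal peaks (Fisher's exact test, adjusted p = 0.2857), 3.964 percentage points apart. A nuclear tRNA gene lay within 200 bp of 5 members (0.8591%) and 13 other autosomal peaks (1.611%), all 5 members being single promoters. CAGGTG was present at 2.234% of members and 1.611% of other autosomal peaks (Fisher's exact test, adjusted p = 0.8536).

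**Figure D3:**
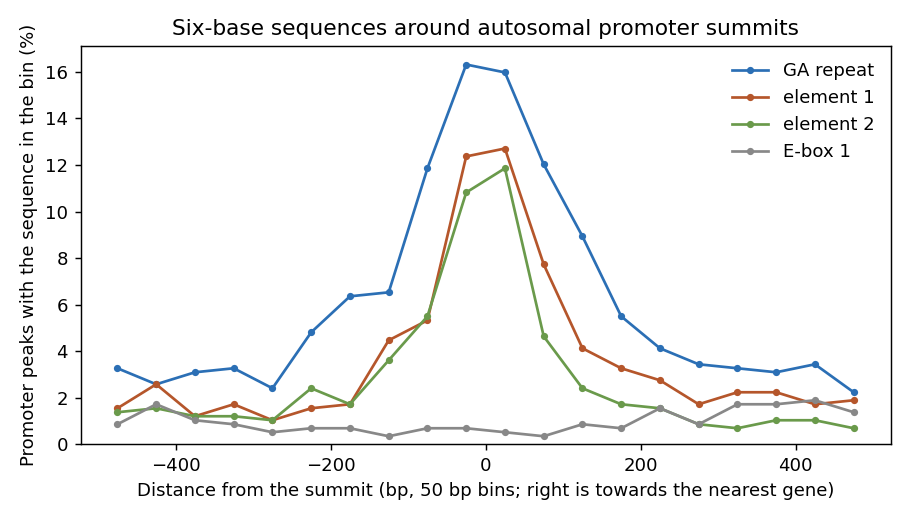
The horizontal axis gives the distance from the summit of the 582 promoter peaks in 50 bp bins, with positive values towards the nearest gene, and the vertical axis the percentage of peaks that hold each sequence in the bin. The GA repeat is GAGAGA, element 1 is CGTCTC, element 2 is ACGCAG and E-box 1 is CAGGTG. The first 3 peak in the 2 bins at the summit, while the E-box does not.

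The plot around the summit shows that the 3 frequent elements sat where the peaks did. GAGAGA was present in 16.32% and 15.98% of members in the bins just before and just after the summit and in 3.265% and 2.234% in the outermost bins. CGTCTC was present in 12.37% and 12.71% and ACGCAG in 10.82% and 11.86% of members in the same central bins. Members in the top 25% by score (64.24 to 354.0) held GAGAGA in 43.15% and CGTCTC in 37.67%, and those in the lowest 25% (29.67 to 35.93) in 37.93% and 26.90%. Mean GC content was 46.46% in the top and 41.65% in the lowest 25%.

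The rule admits more sequence upstream than downstream of a start, so the median distance is a description only. For members the nearest start was taken among those whose window held the summit, which can lower the counts beyond 100 bp downstream. The median member summit lay 184 bp upstream of that 5′ end (quartiles 101 and 290), at 140.0 bp in divergent and 212.0 bp in single promoters. At or downstream of it lay 29. From the upstream edge of the window inwards, successive 100 bp bins held 43, 88, 135, 171 and 116 summits, and the bin downstream of the start held 29. The nearest bins outside the window held 31 summits on the upstream side and 9 on the downstream side, which gives the values either side of the rule's limits, and the fullest bin lay 200 to 100 bp upstream. Ribosomal protein promoters had their summits at a median of 251.0 bp upstream.

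**Figure D4:**
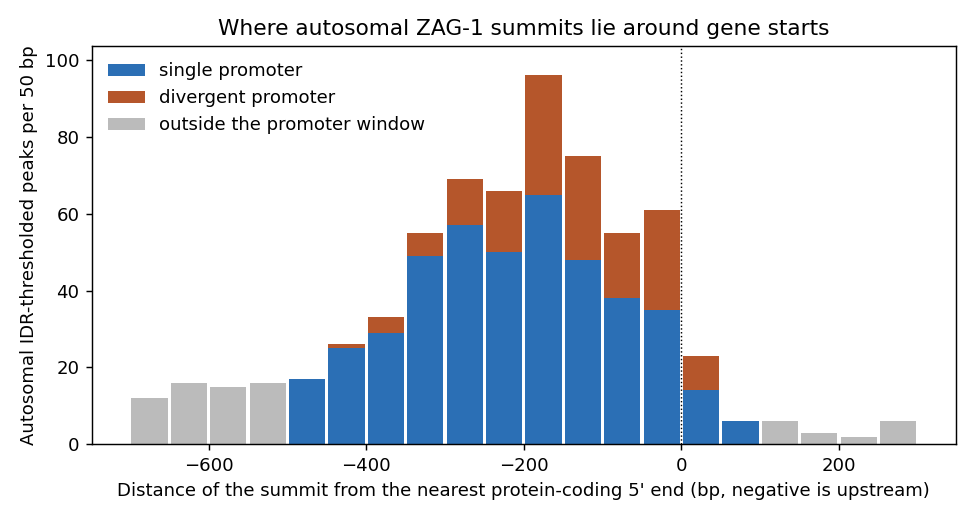
Autosomal peaks of the reproducible list are counted in 50 bp bins by the distance of the summit from the nearest protein-coding 5′ end (bp, negative is upstream), with single promoters in blue, divergent promoters in orange and peaks outside the promoter window in grey. For members the nearest start is taken among those whose window holds the summit, which can lower the counts beyond 100 bp downstream. The counts are highest between 200 and 100 bp upstream and fall steeply past the start.

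The number of members per length of promoter varied over the 5 autosomes. Chromosome I held 140 members, II 107, III 116, IV 115 and V 104, which is 68.15, 44.88, 63.78, 46.65 and 30.35 members per Mb of promoter window, and the X chromosome held 66.99. The share of members that were divergent ran from 17.76% on II to 30.17% on III. Of 3 equal parts of each chromosome, the middle one held 44.33% of members (40.34 to 48.39) and 38.10% of autosomal protein-coding genes.

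The promoters of 724 genes held a member summit, which is 4.20% of the 17242 autosomal protein-coding genes. A single gene's window held the summit at 427 members, windows of 2 genes at 152 and of 3 genes at 3. Of the 724 genes 301 (41.57%) were reached through a divergent promoter, so the peak cannot be given to one gene of the pair. Genes known only by a sequence-based name, without a symbol of letters and a number, made up 181 of the 724, against 44.60% of all autosomal genes, and those with a product called uncharacterized or hypothetical by RefSeq 3.453% and 8.820%. The gene zag-1 was not among the 724.

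Most genes had 1 summit (709), 14 had 2 and gsa-1, the stimulatory G protein alpha subunit, had 3, at scores from 59.37 to 63.33. The summits of gsa-1 at positions 1068514 and 1068263 of chromosome I share the same overlapping peak in each replicate list, as do the pairs at C17H12.10, unc-76, Y97E10AR.1 and snt-4, so these are not separate observations. unc-76, which encodes a protein of axon bundling, had summits scored 68.95 and 39.13. snt-4, a synaptotagmin gene, held the lowest-scoring member (29.67) beside one of 52.46. lgg-2, an LC3-type autophagy protein gene, had summits of 68.34 and 49.49 at different starts.

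Gene functions were described with 33 lists, each count set beside the 4.20% of all autosomal genes. Cytosolic ribosomal proteins stood highest. Of 48 autosomal genes for the large subunit 28 had a member (58.33%, 44.28 to 71.15), 13.89 times the background, and of 32 for the small subunit 17 (53.12%, 36.45 to 69.13), 12.65 times. In divergent promoters were 16 of the 28 and 11 of the 17, and the gene was the one nearest to a summit for 18 and 8. The strongest of the small subunit after rps-20 were rps-12, which shares its promoter with ska-3 (148.9), and rps-1 (126.5). GAGAGA was present at 4 of the 28 and 3 of the 17 genes' strongest summits. With windows of 300 bp upstream the counts were 17 and 10.

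**Figure D5:**
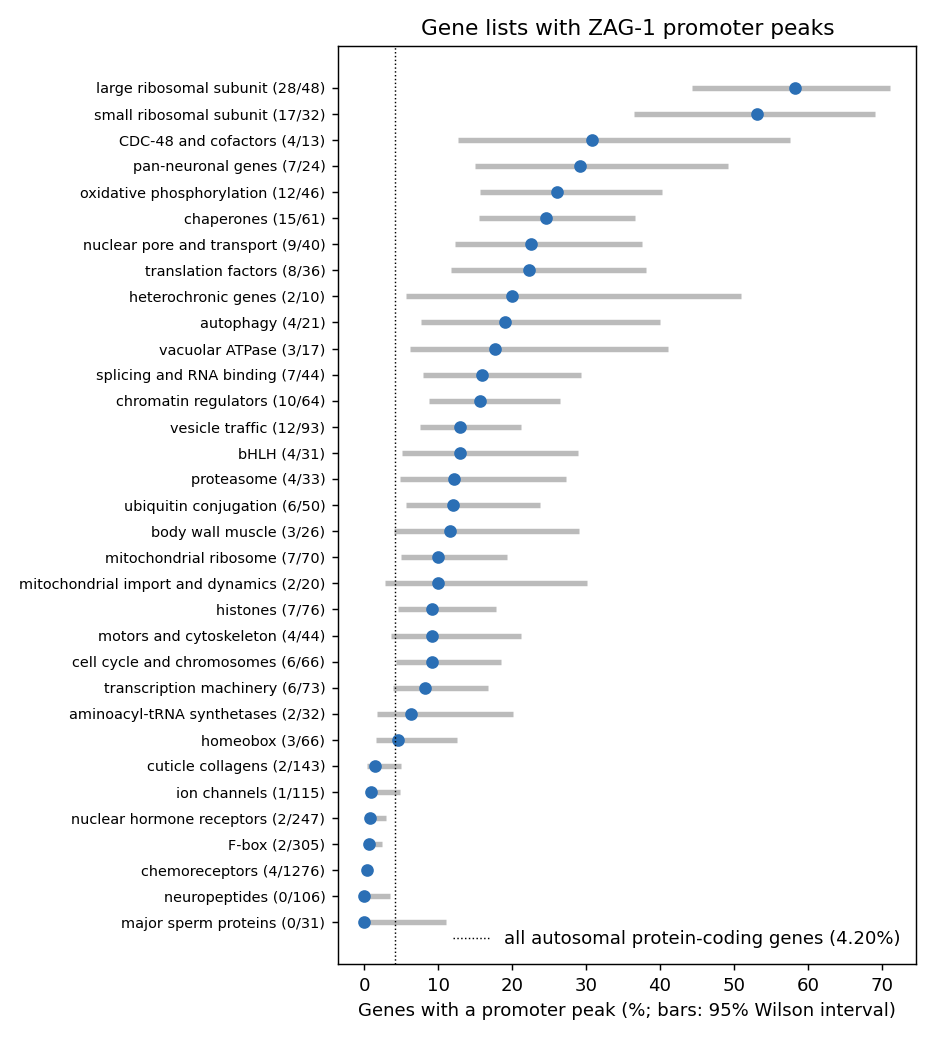
For 33 gene lists the horizontal axis gives the percentage of autosomal genes with a promoter peak, as points with 95% Wilson intervals for counting error, with the number of genes beside each name, and the dotted line marks the 4.20% of all autosomal protein-coding genes. Both ribosomal subunits lie above 50% and the chemoreceptors, F-box genes and nuclear hormone receptors below 1%.

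Translation factors had 8 of 36 genes with a member (22.22%, 5.292 times the background), led by eef-1G (83.13), eef-2 (76.39) and eif-3.C (75.51), which encode elongation factors and an initiation factor subunit. Mitochondrial ribosomal proteins had 7 of 70 (2.381 times), with mrps-7 the highest at 62.01. Aminoacyl-tRNA synthetases, which charge tRNAs, had 2 of 32 (6.250%, 1.731 to 20.15, which includes the background), ears-2 and mars-1.

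Respiratory chain and ATP synthase genes had 12 of 46 with a member (26.09%, 6.213 times the background). The strongest were the cytochrome c oxidase subunits cox-5B (182.2), cox-5A (125.7) and cox-6B (124.2), which ranked 41, 77 and 85 in replicate 1 and 17, 86 and 96 in replicate 2. Of the list of mitochondrial import and dynamics 2 of 20 genes had a member, tomm-20, an import receptor (40.02), and tim-1 (76.69), a gene whose name matched the list but which is known as the timeless homologue.

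Chaperones had 15 of 61 genes with a member (24.59%, 5.856 times), 12 of them in divergent promoters and 5 with the nearest start. pfd-1 led them, followed by hsp-1, the constitutive HSP70 (125.7), and cct-7, a subunit of the TRiC chaperonin (124.4). hsp-1 ranked 52 in replicate 1 and 243 in replicate 2. CDC-48 and its cofactors had 4 of 13 (30.77%), all in single promoters, with cdc-48.1 far above ufd-3 (49.79) and ufd-2 (34.83). The proteasome had 4 of 33 (12.12%), led by rpn-3 (84.36) in a promoter shared with the chaperone hsp-110, and ubiquitin conjugation 6 of 50 (2.858 times), led by ubq-2 (65.06).

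Genes for handling RNA and chromatin were also above the background. Nuclear pore and transport genes had 9 of 40 (22.50%), led by npp-3 (68.05) and npp-14 (62.16), both nucleoporins. Splicing and RNA binding had 7 of 44 (15.91%), led by the Sm protein gene snr-4 (94.74). Chromatin regulators had 10 of 64 (15.62%), led by the histone methyltransferase genes set-16 (145.7) and met-1 (101.2). Histones had 7 of 76 (9.211%, 4.533 to 17.81), among them htz-1, the H2A.Z variant (73.22), and the pair his-61 and his-62, which share a divergent promoter (50.24). The transcription machinery had 6 of 73 (8.219%, 3.821 to 16.79), an interval that includes the background. Cell cycle genes had 6 of 66 (9.091%, 4.233 to 18.45), with cdk-7 at 75.06.

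Membrane traffic had 12 of 93 genes with a member (12.90%), led by the translocon subunit sec-61.G (108.5), whose sequence is printed above, and by vps-51 (108.3), which shares its promoter with lin-35, the retinoblastoma homologue. Autophagy genes had 4 of 21 (19.05%), with lgg-2 and lgg-1 (59.56) the strongest, and the vacuolar ATPase 3 of 17 (17.65%), with vha-8 at 94.67. Motors and cytoskeleton had 4 of 44 (9.091%, 3.592 to 21.16, which includes the background), with tba-2 at 48.55.

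Among lists of neuronal genes, the pan-neuronal list had a share above the background, and neuropeptides, ion channels and chemoreceptors had shares below it. Of 24 autosomal pan-neuronal genes 7 had a member (29.17%, 14.91 to 49.17), 6.946 times the background. The strongest were rgef-1, a Ras guanine nucleotide releasing factor (78.89), egl-21, a neuropeptide-processing carboxypeptidase (69.00), and unc-33, a CRMP-family protein of axon growth (46.42). rgef-1 ranked 244 in replicate 1 and 370 in replicate 2, egl-21 360 and 464, and unc-33 632 and 2335. The other 4 were ida-1, tbb-1, unc-26 and unc-104, the last a synaptic vesicle kinesin. tbb-1, a beta-tubulin gene, was also in the list of motors and cytoskeleton, and its summit lay nearest to the start of rib-2. By contrast 0 of 106 neuropeptide genes had a member, which allows a share of up to 3.497%, and 4 of 1276 chemoreceptor genes did (0.3135%). Of 115 genes in the ion channel list 1 had a member (twk-49, 31.86), which allows up to 4.762%. That list was matched by name and did not hold C17H12.10 (69.79), whose RefSeq product is an Ion_trans_2 domain-containing protein. All 4 of those chemoreceptor genes lay in divergent promoters, among them str-12 beside fbxa-153 (51.18) and sri-5 beside rsr-1 (44.12). With the higher-scoring 50% of peaks the pan-neuronal count was 3, where the share over all autosomal genes was 2.233%.

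Of 66 genes in the homeobox list, which was matched by name, 3 had a member (4.545%, 1.082 times), a share near the background. They were ceh-38 (94.43), unc-42 (46.46) and lim-9 (36.10), but lim-9 matched by its name only, since its RefSeq product is a LIM zinc-binding domain protein and it is known as a LIM-only protein without a homeodomain. Basic helix-loop-helix genes had 4 of 31 (12.90%), hif-1, the hypoxia-inducible factor (94.11), hlh-11 (71.24), aha-1 (52.36) and hlh-30 (51.02), and all 4 held GAGAGA. Nuclear hormone receptors had 2 of 247 (0.8097%), nhr-49 (57.60) and nhr-47 (41.71). Of 10 heterochronic genes, which time larval development, 2 had a member, mab-10 (74.75) and lin-28 (56.77).

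The lists of cuticle collagens, F-box genes and major sperm proteins had shares below the background, and body wall muscle genes a share above it. Of these only the interval of the F-box genes leaves out the background. Cuticle collagens had 2 of 143 (1.399%, 0.3844 to 4.956), col-38 and col-71, neither with the nearest start, and col-38 shares its promoter with rpl-5. The F-box list, matched by name, had 2 of 305 (0.6557%) and did not hold fbxl-2, a member at 83.47. Major sperm proteins had 0 of 31, which allows up to 11.03%. Body wall muscle genes had 3 of 26 (11.54%, 4.003 to 28.98), unc-60, unc-112 and act-2, and 0 with windows of 300 bp upstream. In all, 201 of the 724 genes were in a list and 523 in none. Of the 149 divergent members 58 had no listed gene, 77 had 1 and 14 had 2, such as rpl-7A with set-21 and rpt-2 with aps-1.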

How the data were processed

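ZAG-1 peaks were measured by ChIP-seq in 2 biological replicates of 1 group. Per the deposited file list, the authors made peak lists from each replicate and from the pooled replicates with a control, and an IDR-thresholded list (irreproducible discovery rate) from these; the threshold and the caller with its filters are not stated in what was used here. Each list gives a score per peak as deposited by the authors, used to rank, filter and summarise peaks within a list. Across the replicate lists it was used only for the plot and the correlations, and the lists need not share a scale. Read depth is unknown, and Wilson intervals cover counting error only. Peaks are not replicates, so each p-value describes these libraries.

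Summits were placed against WBcel235 (Ensembl release 115 transcripts, RefSeq sequence and products). The ce10 lists were not used here. Shares were compared with two-sided Fisher's exact tests with Benjamini-Hochberg adjustment over 45 tests and a threshold of 0.05. Gene lists were matched by name and got no test. Genes named are those of the 12 strongest members, the 5 strongest divergent members, the 5 strongest with CAGGTG, up to 5 promoters with most summits, the lowest member and the 3 strongest of each list; any others were chosen after their values were seen. Members, lists and tests were chosen with earlier results of these data known. Alternatives were other windows, starts, overlaps, score limits, motif distances and each replicate alone. The programs (Python 3.11.15, numpy 2.4.6, pandas 2.3.3, scipy 1.17.1, matplotlib 3.10.9) were tested on simulated data.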

Additional observations from a re-analysis of the deposited data

How the results depend on the processing

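None of the 8 trait differences past the threshold changed direction under the alternatives run, and the remaining differences were not followed singly. Of the gene lists, body wall muscle fell from 3 genes to 0 with 300 bp and aminoacyl-tRNA synthetases from 2 to 0 with the higher-scoring 50%. Members were 32.47% of autosomal peaks with windows of 300 bp upstream, 52.70% with 1000 bp, 37.15% with the outermost start of each gene, 47.30% with any overlap and 44.84% among the higher-scoring 50% of peaks, where 304 members were left and 22.37% were in the top 25% by score. The divergent share was 18.18% at 300 bp and 29.92% at 1000 bp, and the density ratio 4.154 at 1000 bp. The share of genes with a member was 3.097%, 5.487%, 3.851%, 4.791% and 2.233% under the same 5 settings in order, and 3.283% with the nearest start only. Within 50 and 200 bp of the summit GAGAGA was present at 26.46% and 49.66% of members and CAGGTG at 1.203% and 4.296%. The number of traits past the threshold against other autosomal peaks ran from 3 to 5 when a replicate was left out and was 6 within 200 bp, 2 within 50 bp and 2 with the higher-scoring 50%. Against X promoter peaks it was 0 of 15 within 50 bp. Between divergent and single members it was 1 within 50 bp and 4 within 200 bp. Adjusted Fisher's exact p-values past 0.05 were found for CACACA against other autosomal peaks with 1000 bp (0.1202), any overlap (0.07560), the higher-scoring 50% (0.1938), without replicate 1 (0.06332) and within 50 bp (0.3591). Against X promoters they were found for GAGAGA with 1000 bp (0.2783), without replicate 1 (0.08246), without replicate 2 (0.08414) and within 50 bp (0.1336), for CACACA within 50 bp (0.6381) and for TTAAAA with 300 bp (0.08038), the higher-scoring 50% (0.1948) and within 50 bp (0.1032). The causes were not tested. Keeping 1 peak per overlapping group left 577 members. Peak lists hold no counts, so what depth limits is unknown. No paired analysis was possible because the replicates form 1 group.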

Other observations

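All 2080 six-base sequences were counted within 100 bp of the summits, on both strands, and those given here were picked after their values were seen, so no test was made. GCGCAC was present at 20.10% of members, 10.29% of other autosomal peaks and 3.844% of promoters without a peak. GAGCGC was present at 19.59%, 12.27% and 3.517%, and AGCGCG at 17.35%, 8.922% and 3.336%. Divergent members held these GC-rich sequences at 22.15%, 26.85% and 22.82% and single members at 19.40%, 17.09% and 15.47%. GAGCGC was present at 38.00% of the 50 strongest members. AAAATC was present at 36.08% of members and 43.54% of promoters without a peak, against 13.14% of other autosomal peaks.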
